A study of Homo sapiens with 6 samples.

Results

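The 5 miR-320 miRNAs (hsa-miR-320a, hsa-miR-320b, hsa-miR-320c, hsa-miR-320d and hsa-miR-320e) and hsa-miR-484 were chosen by name, because the precursors of miR-320a and miR-484 can mature without Drosha and the remaining 4 belong to the family of miR-320a. They were 6 of the 2588 mature miRNAs listed, 1469 of which had reads in these libraries. All 6 passed the filter on low counts that left 620 miRNAs for testing. The libraries were made from the human lung adenocarcinoma line A549, in which a lentiviral short hairpin RNA against METTL1 had been switched on with 200 ng/ml doxycycline and which were collected on day 5. METTL1 is a methyltransferase that places N7-methylguanosine (m7G) in RNA. Both groups carried the knockdown, with 3 libraries of total RNA (the input) and 3 libraries of RNA recovered with an antibody against m7G (m7G-RIP), so the comparison asked which miRNAs the antibody recovered over input in knockdown cells and gave no measure of METTL1 itself. The METTL1 transcript, not being a miRNA, was not analysed here.

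Most miRNA precursors are cut out of a longer transcript by the nuclear enzyme Drosha before Dicer trims them to the mature miRNA. The precursors of miR-320a and miR-484 are known to take another route, which was not examined here for hsa-miR-320b to hsa-miR-320e. RNA polymerase II makes them directly as short hairpins whose 5′ end is the transcription start and carries the m7G cap of the transcript. Mirtrons, short introns that fold into a hairpin after splicing, bypass Drosha as well. A cap holds m7G at the 5′ end, whereas METTL1 modifies a guanosine inside the RNA, and an antibody against m7G can bind either form where it is exposed. The protocol of the study removed caps from the RNA and denatured it by heat before the antibody was added. The same protocol sets the input aside after both steps. The labels name the total RNA libraries as input but do not say that they were set aside in this way. By the protocol's text they would also hold decapped RNA.

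Names were matched to RefSeq mature sequences (GRCh38.p14) for 5 of the 6 miRNAs, and the name left unmatched was hsa-miR-320a. The sequences are printed 5′ to 3′ because the family members differ at their ends and because hsa-miR-484 has a different base composition. Capitals mark the seed, bases 2 to 8, which pairs with target mRNAs.
hsa-miR-320b: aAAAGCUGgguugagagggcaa
hsa-miR-320c: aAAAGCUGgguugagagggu
hsa-miR-320d: aAAAGCUGgguugagagga
hsa-miR-320e: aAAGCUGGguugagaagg
hsa-miR-484: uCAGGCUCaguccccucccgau

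hsa-miR-320b, hsa-miR-320c and hsa-miR-320d shared the seed AAAGCUG. hsa-miR-320b and hsa-miR-320c were identical over their first 19 bases, and hsa-miR-320d matched both over 18 bases. hsa-miR-320e had the seed AAGCUGG and shared a run of 15 bases with the other printed family members. Reads that end early can therefore fit more than a single row of the count table. How such reads were counted is not stated, so the split of reads among the family rows is uncertain, and the family was also examined as a sum. hsa-miR-484, with the seed CAGGCUC, had no such near copy among the members.

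The printed family members were rich in G. G made up 40.9% of hsa-miR-320b, 45.0% of hsa-miR-320c, 42.1% of hsa-miR-320d and 44.4% of hsa-miR-320e, against a median of 27.8% over 557 tested miRNAs with a sequence. These contents exceeded those of 79.5% to 85.8% of the tested miRNAs. hsa-miR-484 was rich in C instead. It held 45.5% C, more than 91.6% of the tested miRNAs, and 18.2% G, more than 18.3% of them. A run of GGG, read on the strand of the miRNA, was found 2 times each in hsa-miR-320b and hsa-miR-320c, 1 time each in hsa-miR-320d and hsa-miR-320e, and not in hsa-miR-484, whose longest run was 4 C. GGG was present in 35.7% of the 557 tested miRNAs with a sequence. It was present in 32.9% of the 2281 listed miRNAs that had a sequence, with or without reads.

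The mature sequence also lay on opposite arms of the RefSeq hairpins. The 2 hairpins below are shown for the position of the mature miRNA, which is in capitals.
MIR320B1: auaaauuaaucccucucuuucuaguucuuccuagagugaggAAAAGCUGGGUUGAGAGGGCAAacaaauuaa
MIR484: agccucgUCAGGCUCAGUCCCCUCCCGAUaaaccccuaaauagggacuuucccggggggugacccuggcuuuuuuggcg

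MIR320B1 lies at chr1:116671746-116671817 on the plus strand (GRCh38), outside annotated genes of that strand, and its mature miRNA takes bases 42 to 63 of 72. The 7 hairpins that give hsa-miR-320b to hsa-miR-320e all hold the mature miRNA on the 3′ side. The second hsa-miR-320b hairpin lies in an intron of NVL (chr1:224257040-224257110, minus strand), and the hsa-miR-320e hairpin lies in an intron of PRKD2 (chr19:46709282-46709354, minus strand). The hsa-miR-320c hairpins lie at chr18:21683518-21683589 and chr18:24321675-24321746 on the plus strand, opposite ABHD3 and OSBPL1A. The hsa-miR-320d hairpins lie at chr13:40727816-40727887 and chrX:140926160-140926231 on the minus strand, outside annotated genes. MIR484 lies at chr16:15643294-15643372 on the plus strand, in an exon of NDE1 and 27 bases downstream of the nearest annotated NDE1 start. Its mature miRNA takes bases 8 to 29 of 79, on the 5′ side.

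Total RNA libraries held 9155690 to 10753443 counts and m7G-RIP libraries 2649238 to 3106556. Libraries of the same group differed beyond counting noise (chi-square per degree of freedom 26.0 to 141), so all were kept as separate libraries. The labels do not say whether the libraries came from separate cultures, so p-values measure only the spread between these libraries. Counts of the total RNA and m7G-RIP groups were also deposited separately. A difference in preparation between the groups could not be told apart from recovery by the antibody. Levels are given as TMM-scaled CPM (reads of a miRNA in proportion to the scaled size of its library), which puts the libraries on a common scale. The amount of RNA recovered is not known, so a log2 ratio of m7G-RIP over total RNA says how a miRNA moved relative to the rest of its library. Of the 620 miRNAs tested with edgeR, 23.5% passed an adjusted p of 0.05 as enriched in m7G-RIP and 29.2% as depleted. All m7G-RIP values exceeded all total RNA values for 29.5% of them, and the reverse held for 36.5%.

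All 5 miR-320 miRNAs were enriched in m7G-RIP, by about 3-fold to 4-fold, and hsa-miR-484 was not. Read against the 23.5% of tested miRNAs that were enriched, 5 of the 6 miRNAs were called in that direction and 0 were depleted. The median log2 ratio was 1.94 over the family, against -0.07 over all tested miRNAs. The family members come from the same 6 libraries and possibly share reads, so they are not independent measurements.

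hsa-miR-320a, the most abundant member, had 6385, 6683 and 7382 CPM in total RNA and 20694, 23118 and 23544 CPM in m7G-RIP. The groups lay far apart, with no library between 7382 and 20694 CPM. m7G-RIP exceeded total RNA by 1.72 on the log2 scale (SE 0.10, edgeR adjusted p = 1.51e-06), a fold of 3.29. This ratio exceeded that of 82.9% of the tested miRNAs. hsa-miR-320a ranked 17 by level in total RNA and 10 in m7G-RIP among the 620.

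hsa-miR-320b, the second most abundant family member, had 440, 428 and 485 CPM in total RNA and 1551, 1768 and 1863 CPM in m7G-RIP. Every m7G-RIP library was above 3 times the highest total RNA library. Its log2 ratio was 1.94 (SE 0.12, edgeR adjusted p = 1.69e-06), and its rank moved from 91 to 37.

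hsa-miR-320c, which differs from hsa-miR-320b only at the 3′ end, had 139, 131 and 132 CPM in total RNA and 473, 525 and 610 CPM in m7G-RIP. The total RNA values were nearly equal and the m7G-RIP values spread more, without overlap. The log2 ratio was 2.00 (SE 0.15, edgeR adjusted p = 4.21e-06), the highest of the 6 miRNAs. hsa-miR-320d, shorter by a base than hsa-miR-320c, had 52.2, 50.2 and 63.6 CPM in total RNA and 194, 244 and 219 CPM in m7G-RIP. It again showed no overlap between the groups. The log2 ratio was 1.98 (SE 0.18, edgeR adjusted p = 1.80e-05).

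hsa-miR-320e, the rarest member, had 5.42, 7.49 and 10.7 CPM in total RNA and 18.9, 30.5 and 21.1 CPM in m7G-RIP. These values rested on 48, 63 and 81 reads in total RNA and 64, 97 and 79 reads in m7G-RIP, and the lowest, 48 reads, has a 95% exact Poisson interval of 35.4 to 63.6 for counting error only. The groups did not overlap, but the total RNA libraries alone spread from 5.42 to 10.7 CPM. Its log2 ratio was 1.58 (SE 0.42, edgeR adjusted p = 0.0113). Without m7G-RIP replicate 2 the log2 ratio was 1.18 and the call was lost (edgeR adjusted p = 0.0608), as it was without the filter on low counts (1.31, edgeR adjusted p = 0.0524).

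hsa-miR-484, known to target the mitochondrial fission gene FIS1, had 846, 818 and 849 CPM in total RNA and 498, 688 and 752 CPM in m7G-RIP. All 3 m7G-RIP libraries lay below the total RNA libraries, and they spread more, with replicate 1 the lowest. The log2 ratio was -0.37 (SE 0.16, edgeR adjusted p = 0.0715), which did not pass the threshold. A value of this size was in the middle of the tested miRNAs, above 45.3% of them. hsa-miR-484 ranked 64 by level in both groups.

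The call of hsa-miR-484 differed between settings. With library size in place of TMM its log2 ratio was 0.17 (edgeR adjusted p = 0.306), and the median of all tested miRNAs rose by 0.55 with it. Relative to that median, the difference was -0.30 with TMM and -0.31 with library size. The DESeq2 Wald test gave -0.37 with an adjusted p of 0.0277, past the threshold as depleted. Leaving out m7G-RIP replicate 3 gave -0.72 (edgeR adjusted p = 0.00334), and leaving out m7G-RIP replicate 2 gave -0.59 (edgeR adjusted p = 0.0367). No setting called hsa-miR-484 enriched.

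**Figure D1:**
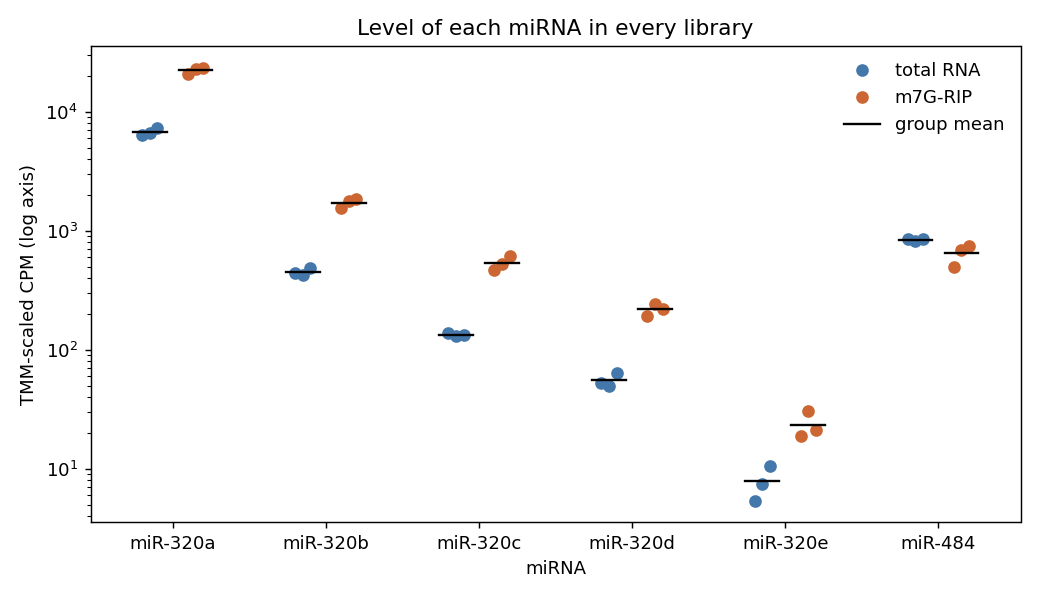
TMM-scaled CPM (log axis) of the 6 miRNAs in each library, with total RNA in blue, m7G-RIP in orange and black lines at the group means of 3 libraries. The 3 orange points of each miR-320 miRNA sit above all its blue points, while those of miR-484, at 498 to 752 CPM, sit below its blue points.

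In order of level, total RNA held hsa-miR-320a at 6817 ± 512 CPM, hsa-miR-484 at 838 ± 17.4, hsa-miR-320b at 451 ± 29.8, hsa-miR-320c at 134 ± 4.32, hsa-miR-320d at 55.3 ± 7.25 and hsa-miR-320e at 7.85 ± 2.64 (SD, n = 3). No neighbours in that order overlapped. In m7G-RIP, hsa-miR-320a was at 22452 ± 1537 CPM, hsa-miR-320b at 1728 ± 160, hsa-miR-484 at 646 ± 133, hsa-miR-320c at 536 ± 68.9, hsa-miR-320d at 219 ± 24.6 and hsa-miR-320e at 23.5 ± 6.14 (SD, n = 3). hsa-miR-484 stood above hsa-miR-320b in every total RNA library and below it in every m7G-RIP library. In m7G-RIP, hsa-miR-484 and hsa-miR-320c overlapped, with ranges of 498 to 752 and 473 to 610 CPM. The remaining neighbours did not. Reads were counted per mature miRNA of 18 to 22 bases, so these levels are not divided by length.

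**Figure D2:**
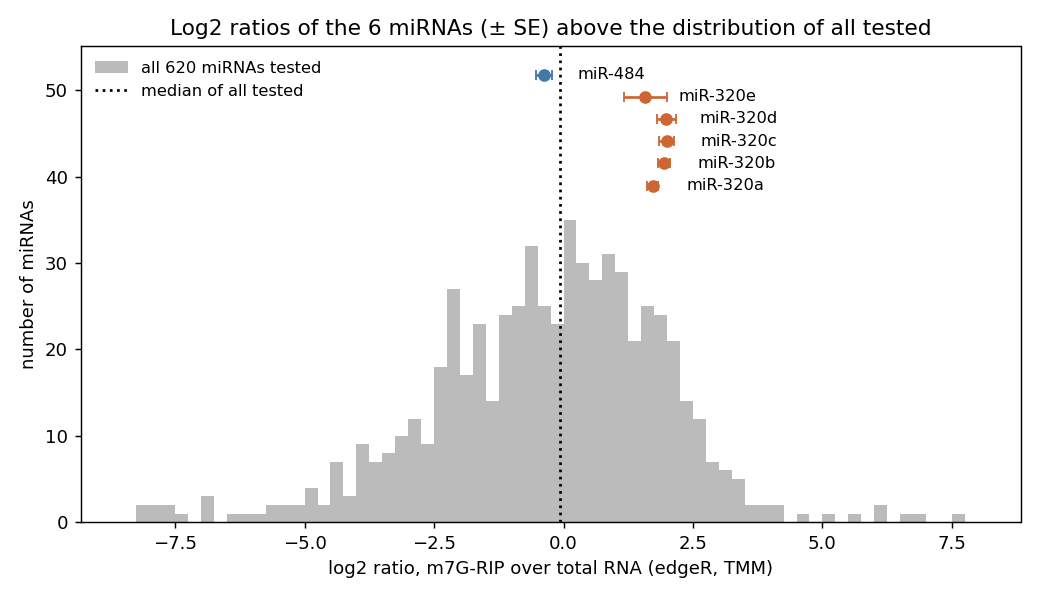
Histogram of the log2 ratios of m7G-RIP over total RNA for the 620 miRNAs tested, with the 6 miRNAs drawn above it as points with SE bars and a dotted line at the median of -0.07. The miR-320 points lie between 1.58 and 2.00, on the right shoulder of the distribution, and miR-484 lies at -0.37, beside the median.

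As a sum, the miR-320 rows held 0.579%, 0.599% and 0.671% of all counts in total RNA and 2.94%, 2.96% and 3.16% in m7G-RIP. The family therefore took 0.616% ± 0.0484 of the input and 3.02% ± 0.120 of the recovered reads (SD, n = 3). A count table with the family rows summed put the log2 ratio at 1.79 (edgeR adjusted p = 1.12e-06). This value does not depend on how reads were split within the family. It can still depend on whether shared reads were dropped or counted in several rows. The hsa-miR-320b row held 3602 to 3898 reads in total RNA although its mature sequence is the same in both of its hairpins. Outside the family, hsa-miR-365a-3p and hsa-miR-365b-3p, of equal length and base content, had the same log2 ratio of -0.757. How such reads were counted was not tested. hsa-miR-320a gave 91.3% of the summed reads in total RNA and 89.97% in m7G-RIP, so the sum says little about the rarer rows. Percentages of all counts are not TMM-scaled, and the TMM factors were 0.820 to 0.831 in total RNA and 1.15 to 1.28 in m7G-RIP. On this percent scale hsa-miR-484 held 0.0697%, 0.0671% and 0.0705% in total RNA and 0.0638%, 0.0793% and 0.0905% in m7G-RIP. Here its groups overlapped, and its mean was 0.0691% ± 0.00183 in total RNA and 0.0779% ± 0.0134 in m7G-RIP (SD, n = 3).

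Ratios of rows within a library do not depend on the scaling. In total RNA there were 7.55, 8.17 and 8.69 reads of hsa-miR-320a per read of hsa-miR-484, and in m7G-RIP there were 41.6, 33.6 and 31.3. Every m7G-RIP library thus held at least 31.3 reads of hsa-miR-320a per hsa-miR-484 read, and no total RNA library held above 8.69. On the log2 scale hsa-miR-484 over hsa-miR-320a was -3.02 ± 0.102 in total RNA and -5.14 ± 0.214 in m7G-RIP (SD, n = 3). The difference of -2.12, or 4.34-fold less hsa-miR-484 per hsa-miR-320a, gave p = 0.1 in an exact two-sided permutation test, which is the lowest value 3 against 3 libraries allow, and an adjusted p of 0.125 over the 5 ratios compared. It stayed between -2.20 and -1.997 under each alternative run on this ratio.

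Within the family the recovery was nearly even. Relative to hsa-miR-320a, hsa-miR-320b was higher in m7G-RIP by 0.22 on the log2 scale, hsa-miR-320c by 0.27 and hsa-miR-320d by 0.27, folds of 1.16, 1.20 and 1.20. The 3 m7G-RIP libraries were above the 3 total RNA libraries for each of these ratios (exact two-sided permutation p = 0.1 each, adjusted p = 0.125). A p of 0.1 cannot pass the threshold in this design. hsa-miR-320e over hsa-miR-320a differed by -0.12, less than the spread between libraries (exact permutation p = 0.7), and its sign turned when total RNA replicate 3 was left out. In shares of the family, hsa-miR-320a made up 91.3% ± 0.329 of reads in total RNA and 89.97% ± 0.288 in m7G-RIP. hsa-miR-320b made up 6.04% ± 0.203 and 6.91% ± 0.168, and hsa-miR-320c 1.81% ± 0.173 and 2.14% ± 0.155 (SD, n = 3). These small shifts are of rows that can share or exchange reads.

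**Figure D3:**
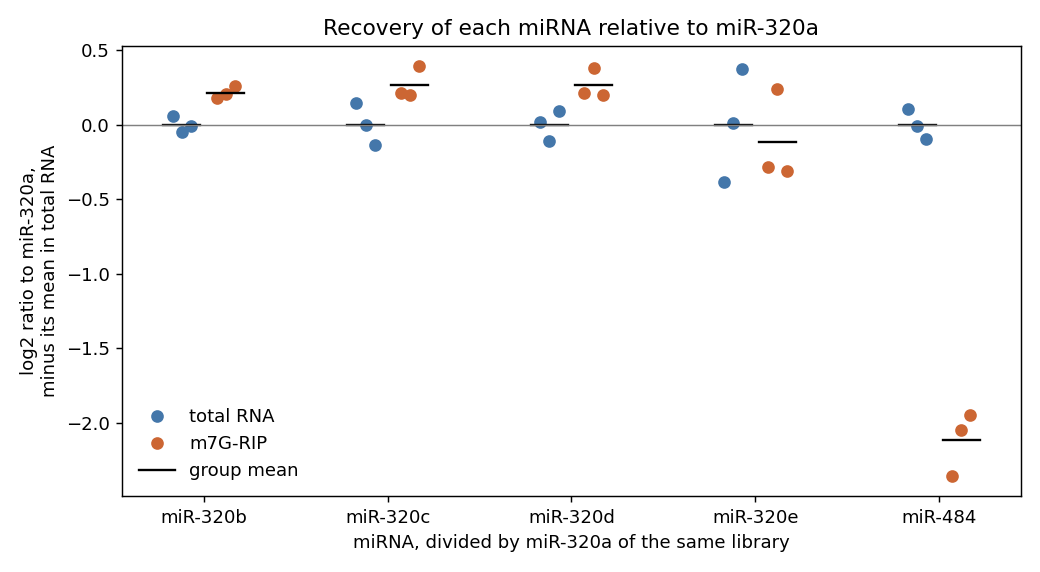
Log2 ratio of each miRNA to miR-320a of the same library, minus the mean of that ratio in total RNA, with libraries as points (total RNA blue, m7G-RIP orange) and group means as black lines. miR-320b, miR-320c and miR-320d sit 0.22 to 0.27 above 0 in m7G-RIP, miR-320e straddles 0, and miR-484 sits at -2.12.

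The remaining miRNAs that carry a member seed were compared next. Among the listed miRNAs with a sequence, 3 others shared a seed with a member, and their sequences are shown for the shared capitals.
hsa-miR-4429: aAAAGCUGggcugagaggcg
hsa-miR-3155a: cCAGGCUCugcagugggaacu
hsa-miR-3155b: cCAGGCUCugcaguggga

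hsa-miR-4429, with the seed of hsa-miR-320b and identical to it over the first 10 bases, had 13.7, 15.9 and 15.1 CPM in total RNA and 41.8, 40.5 and 41.2 CPM in m7G-RIP. Its groups were tight and did not overlap, and the log2 ratio was 1.47 (SE 0.26, edgeR adjusted p = 0.00133). These values rested on 115 to 134 reads in total RNA and 129 to 154 in m7G-RIP. Its sequence stays close to that of hsa-miR-320b beyond those 10 bases. Reads of the far more abundant family may therefore have been counted in its row, which was not tested. hsa-miR-3155b, with the seed of hsa-miR-484, had 31, 53 and 46 reads in total RNA and 0, 0 and 1 in m7G-RIP, and was depleted (edgeR adjusted p = 0.00390). No fold is given for so few reads. hsa-miR-3155a had 16, 2 and 1 reads in total RNA and 0 in every m7G-RIP library, and was not tested. The 2 miRNAs of these 3 that were tested thus went in opposite directions.

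hsa-miR-484 and hsa-miR-3155b had the same seed but not the same base content, and hsa-miR-3155b, which was nearly lost in m7G-RIP, held 38.9% G. Across the 557 tested miRNAs with a sequence, the G content and the log2 ratio had a Pearson r of 0.410 and a Spearman rho of 0.436, and the C content and the log2 ratio an r of -0.09 and a rho of -0.19. These correlations are across miRNAs of the same 6 libraries, which are not independent, and are given as a description. Of the 199 tested miRNAs with GGG, 38.2% were enriched and the median log2 ratio was 0.87. Of the 358 without it, 16.5% were enriched and the median was -0.55. The 4 printed family members had log2 ratios above the median of their GGG class, and hsa-miR-484 was close to the median of the class without GGG. The part of G content in the members' ratios was not tested.

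**Figure D4:**
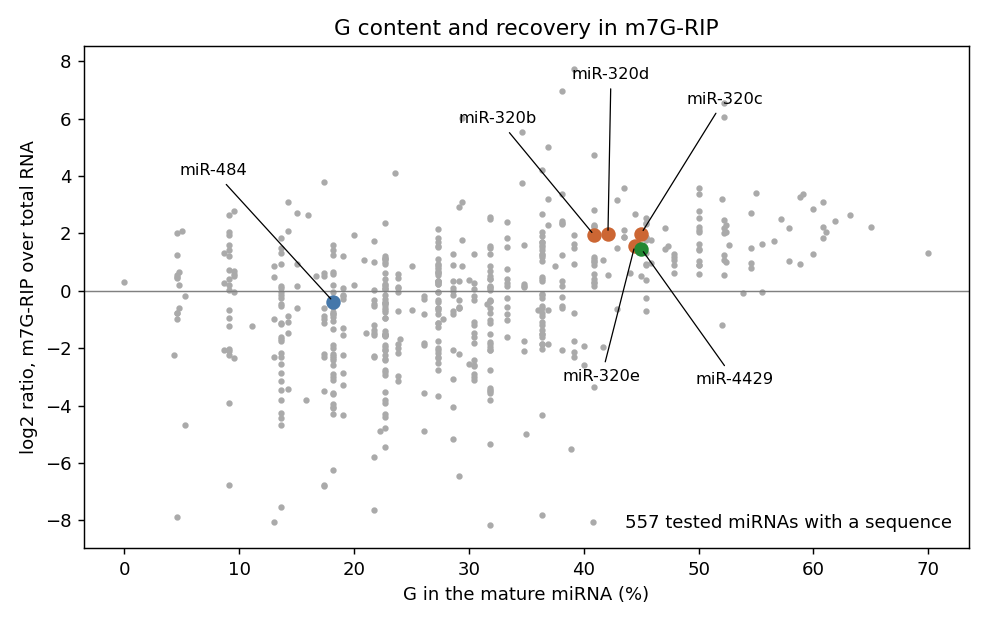
Log2 ratio of m7G-RIP over total RNA against the percent of G in the mature miRNA for 557 tested miRNAs (grey), with miR-320b to miR-320e in orange, miR-4429 in green and miR-484 in blue. The orange and green points lie at 40.9% to 45.0% G and at log2 ratios of 1.47 to 2.00, and miR-484 lies at 18.2% G and -0.37.

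Mirtrons, a class made without Drosha, were examined as both arms of 10 named mirtrons. Of the 20 arms, 8 were tested, 3 were enriched and 0 depleted, beside the 23.5% enriched and 29.2% depleted over all tested, and their median log2 ratio was 0.98. The highest was hsa-miR-877-5p, from an intron of ABCF1, with 46.5, 50.4 and 33.3 CPM in total RNA and 348, 512 and 531 CPM in m7G-RIP. It had the same kind of separation as the miR-320 family with a difference of 3.42 on the log2 scale (SE 0.24, edgeR adjusted p = 3.38e-06). The others enriched, named after their values were seen, were hsa-miR-1224-5p at 2.20 (edgeR adjusted p = 0.000287) and hsa-miR-1237-3p at 2.07 (edgeR adjusted p = 0.0282). hsa-miR-1237-3p rested on low levels, 4.29, 1.78 and 2.50 CPM in total RNA and 6.77, 19.1 and 10.4 CPM in m7G-RIP. The lowest, hsa-miR-1226-3p, was at -0.38 on the log2 scale (edgeR adjusted p = 0.485), and 0.17 with library size alone.

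The study places the miR-320 family in a list of 20 miRNAs that it gives as carrying METTL1-dependent m7G. It selected them as enriched in A549 cells both by m7G-RIP and by a chemical method. They also had to be lower in small RNA libraries of knockdown cells. For all 20, enrichment in m7G-RIP was thus part of the selection, so the direction here is not independent evidence. The total RNA libraries used here are also of knockdown cells and may be among those that served the selection. A low level in them raises the ratio of m7G-RIP over total RNA. hsa-miR-484 is not in that list. Of the other 15 miRNAs, all tested, 14 were enriched and 0 depleted, beside 23.5% and 29.2% over all tested, with a median log2 ratio of 1.24 against -0.07. The miR-320 family median of 1.94 lay within their range. The highest of the 15, hsa-miR-23b-5p, reached 2.56 on the log2 scale (edgeR adjusted p = 1.51e-06). The lowest, hsa-miR-125a-5p, had 0.52 (edgeR adjusted p = 0.0148), a call lost when m7G-RIP replicate 2 (0.33) or 3 (0.17) was left out and when no filter was used (0.24). The miRNA that was not called, hsa-miR-663a, was named after its value was seen and had 0.79 (edgeR adjusted p = 0.461).

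Over the 301 miRNAs that averaged 100 or more counts, those whose log2 CPM followed hsa-miR-320a most closely over the 6 libraries were hsa-miR-1247-3p (Pearson r = 0.9996), hsa-miR-125a-3p (r = 0.998) and hsa-miR-654-5p (r = 0.998). Their log2 ratios were 0.87, 2.24 and 2.30, so a like pattern came with unlike sizes of change. The closest to hsa-miR-484 were hsa-let-7a-3p (r = 0.998), hsa-miR-493-3p (r = 0.991) and hsa-miR-505-3p (r = 0.976). Their log2 ratios were -0.58, -1.37 and -1.63, and that of hsa-let-7a-3p did not pass the threshold (edgeR adjusted p = 0.0927). With library size alone these became -0.04, -0.83 and -1.09, and none of them passed (edgeR adjusted p = 0.911, 0.0952 and 0.0528). Without m7G-RIP replicate 3, hsa-let-7a-3p was at -1.004 and passed (edgeR adjusted p = 0.0139). The 6 libraries fall into 2 separate groups, so these r values are a description and carry no p. Within the members, hsa-miR-320a correlated with hsa-miR-320b, hsa-miR-320c and hsa-miR-320d at r = 0.999, 0.994 and 0.997, and with hsa-miR-484 at r = -0.69.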

How the data were processed

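Raw read counts for each mature miRNA were deposited by the authors in 2 tables of 2588 rows. Their methods name STAR with GRCh38 and featureCounts on miRBase, after Trimmomatic, whereas the submitters' processing notes also list Bowtie2. The counting of reads with several alignments is not stated. The culture text of the m7G-RIP samples describes Caco-2 medium, whereas their titles and cell line labels say A549, which was followed. No METTL1-proficient or IgG libraries were analysed here.

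The 6 miRNAs, the lists and the alternatives were chosen with earlier results of these data known. Counts of all miRNAs passing filterByExpr were tested with edgeR 4.0.16 (R 4.3.3; TMM, robust quasi-likelihood F test, Benjamini-Hochberg, threshold 0.05). Within-library ratios used log2 of counts plus 0.5 and exact two-sided permutation tests. Likeness used log2 CPM with a prior count of 2. Sequences and hairpin positions came from RefSeq and gene context from GENCODE on GRCh38. Named miRNAs were the 6, all others with a member seed, the highest and lowest of each list, and the 3 most correlated with hsa-miR-320a and hsa-miR-484. Alternatives covered scaling, filter, tool (DESeq2 1.42.0, limma-voom 3.58.1, likelihood ratio test), replicate block, summed family rows and leaving out each library, and those for miRNAs other than the 6 were added after seeing the data. On simulated counts of 558 miRNAs, 78.0% of 4-fold and 44.1% of 2-fold changes were called in the right direction, and 1.07% of unchanged miRNAs were called. Only 184 of the simulated miRNAs were changed, in random directions and by 4-fold at most. In the data 146 of 620 were called enriched and 181 depleted, so these rates may not hold there.

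Depth was 2649238 to 10753443 counts per library. Molecular identifiers are not mentioned in the sources used here, so the interval given covers counting error only.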

Additional observations from a re-analysis of the deposited data

How the results depend on the processing

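hsa-miR-320a to hsa-miR-320d kept their direction and their call in each of 15 alternatives, with log2 ratios of 1.44 to 2.27, 1.66 to 2.49, 1.68 to 2.55 and 1.71 to 2.53. hsa-miR-320e lost its call without the filter (1.31) and without m7G-RIP replicate 2, and ranged from 1.18 to 1.77 as single libraries were left out. The number of the 6 miRNAs enriched was 4 in these 2 settings and 5 in the others that kept the rows apart. hsa-miR-484 turned positive, at 0.17, with library size alone. It passed the threshold as depleted with DESeq2 size factors (-0.37), without the filter (-0.66), with a minimum of 10 counts per library (-0.44), with the DESeq2 Wald test (-0.37) and with limma-voom (-0.39), and ranged from -0.72 to -0.40 over the libraries left out, past the threshold in 5 of 6. Without the filter the median of all tested fell by 0.72, and hsa-miR-484 lay 0.14 above it. The log2 ratio of hsa-miR-320e to hsa-miR-320a ranged from -0.31 to 0.069 over the libraries left out. hsa-miR-1226-3p turned to 0.17 with library size alone. The causes were not tested.

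Same-numbered libraries did not deviate together (correlations -0.0433, -0.101 and 0.0641). These values, from 3 libraries a group, cannot show whether same-numbered libraries came from the same RNA. With a replicate block, hsa-miR-320a had a log2 ratio of 1.72 and hsa-miR-484 of -0.40 (edgeR adjusted p = 0.0633), and 5 of the 6 miRNAs were again enriched, in a fit that called 122 miRNAs enriched and 175 depleted. Depth limits hsa-miR-320e and hsa-miR-3155a, which rest on few reads.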
